A study of Mus musculus with 8 samples.

Results

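The 9 genes described here are Tfeb and Mitf, which encode related transcription factors, Flcn, Fnip1 and Fnip2, which encode folliculin and its partners, the Rag GTPase genes Rraga, Rragc and Rragd, and Gpnmb, a gene known to be switched on by these factors. Their chromatin accessibility was taken from a table of 134407 peaks, each 201 bp wide. A peak entered when its centre lay inside the gene's span in the mouse assembly GRCm38 or within 50 kb of it, which gave 145 peaks. Of these, 66 were inside the span of 1 of the 9 genes or had it as their nearest protein-coding gene, and the other 79 were nearer to, or inside, another gene. Each of the 9 genes had at least 2 peaks of its own.

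E14, a wild-type line of mouse embryonic stem cells, was grown with serum and LIF, a cytokine that keeps them pluripotent. The labels give 4 libraries only as controls, naming no vehicle, and in 4 paused libraries the cells had been held for 24 h in 200 nM INK128, which blocks the kinase mTOR. ATAC-seq, in which the Tn5 transposase cuts and tags open chromatin, was carried out on 50000 live cells per library. Both groups are the same line and no genetic change separates them. The labels do not say that the replicates were separate cultures, so p-values measure the spread between these libraries, which may be technical.

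In cells with enough amino acids, a heterodimer of RagA or RagB with RagC or RagD recruits the mTOR complex mTORC1 to the lysosome, and folliculin with FNIP1 or FNIP2 is the GTPase-activating protein that sets RagC and RagD in their active form. Active RagC or RagD then presents TFEB and MITF to mTORC1, and phosphorylation keeps these factors in the cytoplasm. When mTORC1 signalling to them stops, the factors enter the nucleus and bind E-boxes (CACGTG) at genes of the lysosome and of the pathway itself, among them Flcn, Rragd and Gpnmb in other cell types. The control acts on where the TFEB protein is, which accessibility at its gene does not measure.

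The promoters of these genes differ in composition, and 5 sequences are shown because they carry the letters searched for or mark the open and closed start sites of Mitf. They are RefSeq sequences of GRCm38.p6, each from 250 bases before to 50 after a start site, and RefSeq listed 13 promoters for the 9 genes. Capitals mark the E-box CACGTG in Rragc and Fnip1 and the palindrome GTCATATGAC in Fnip1 and Fnip2. In the Mitf promoter C they mark the cyclic AMP response element TGACGTCA and TATAAA, the letters of the TATA box, which read TTTATA on the strand shown. The Mitf promoter A, at its first start site, holds none of these.
Rragc promoter, chr4:123917183-123917482, plus strand: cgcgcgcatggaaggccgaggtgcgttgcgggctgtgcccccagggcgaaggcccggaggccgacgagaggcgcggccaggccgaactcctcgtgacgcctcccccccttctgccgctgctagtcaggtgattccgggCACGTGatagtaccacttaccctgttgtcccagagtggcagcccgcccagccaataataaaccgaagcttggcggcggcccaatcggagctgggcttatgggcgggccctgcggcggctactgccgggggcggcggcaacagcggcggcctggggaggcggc
Fnip1 promoter, chr11:54437929-54438228, plus strand: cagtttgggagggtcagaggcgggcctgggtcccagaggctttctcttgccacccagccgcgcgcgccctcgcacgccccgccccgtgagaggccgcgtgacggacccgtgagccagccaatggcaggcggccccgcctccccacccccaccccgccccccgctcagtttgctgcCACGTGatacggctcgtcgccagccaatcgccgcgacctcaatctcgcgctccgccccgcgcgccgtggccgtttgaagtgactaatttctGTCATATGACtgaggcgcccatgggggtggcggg
Fnip2 promoter, chr3:79567630-79567929, minus strand: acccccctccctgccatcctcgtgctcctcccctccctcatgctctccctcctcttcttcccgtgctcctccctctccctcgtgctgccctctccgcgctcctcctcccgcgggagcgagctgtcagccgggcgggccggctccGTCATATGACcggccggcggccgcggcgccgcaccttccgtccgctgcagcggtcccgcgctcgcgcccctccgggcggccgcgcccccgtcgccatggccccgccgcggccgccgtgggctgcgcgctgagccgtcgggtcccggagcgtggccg
Mitf promoter A, chr6:97806808-97807107, plus strand: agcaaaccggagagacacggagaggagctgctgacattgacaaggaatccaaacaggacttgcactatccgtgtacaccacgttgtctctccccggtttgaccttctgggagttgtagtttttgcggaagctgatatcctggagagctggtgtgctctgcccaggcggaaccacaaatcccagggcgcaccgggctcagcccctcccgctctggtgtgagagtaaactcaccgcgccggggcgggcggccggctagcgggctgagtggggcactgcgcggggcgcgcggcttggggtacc
Mitf promoter C, chr6:97991533-97991832, plus strand: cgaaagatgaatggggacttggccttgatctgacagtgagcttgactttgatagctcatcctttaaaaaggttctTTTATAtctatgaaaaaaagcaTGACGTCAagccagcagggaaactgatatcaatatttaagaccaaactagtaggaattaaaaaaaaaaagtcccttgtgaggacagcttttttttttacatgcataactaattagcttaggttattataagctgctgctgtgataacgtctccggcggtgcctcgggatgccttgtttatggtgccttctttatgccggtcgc

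Among the 13 promoters, CACGTG was found in those of Rragc, 112 bases before the start site, and Fnip1, 75 bases before it. In Rragc it lay under the start-site peak. In Fnip1 it lay 48 bp outside the nearest edge of the peak. Both copies are followed by an A, so they also match the longer form TCACGTG on the other strand. Of the 32851 mouse promoters in the table, 7.15% held CACGTG, as did 10.4% of the 12006 promoters that a peak overlapped. The longer form was in 3.765% and 6.247% of them. Neither TCACGTGA, the palindrome at the core of the motif known for TFEB, nor TCATGTG, the M-box of melanocyte genes, was found in any promoter of the 9 genes on either strand, and these were in 0.9741% and 3.772% of all promoters. An absent match says only that these letters are not in these windows.

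GTCATATGAC and TGACGTCA were searched for after the sequences had been read. The first was picked as the longest palindrome that the Fnip1 and Fnip2 promoters share, so its presence in both was fixed in advance. It was in 14 of the 32851 promoters, 0.04262%, and these 14 included Fnip1, 16 bases after the start site, and Fnip2, 106 bases before it. In Fnip2 the palindrome lay under the start-site peak and in Fnip1 it lay 139 bp outside the peak. TGACGTCA, present in 1.79% of all promoters, was in Mitf promoter C, 153 bases before the start site, and in the Flcn promoter, 49 bases before it. TATAAA, present in 13.62% of all promoters, lay 175 bases before the start site in Mitf promoter C and is given only as a match of letters. The Fnip2 promoter was 78% G and C with 44 CpG dinucleotides, those of Fnip1 and Rragc were each 70.7% with 34 and 32, and Mitf promoter C was 40% with 8. The median of all promoters was 52.67% with 7 CpG dinucleotides.

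Reads in peaks, recovered from the deposited values, numbered 21161767 in control replicate 1 and 4434037 to 7238935 in the other 7 libraries, and the median peak held 91 and 18 to 29 reads. A value here is reads divided by 1 factor per library, called scaled reads. The sum of all values was higher in every paused library than in every control, with a ratio of means of 1.12. All 6 stem cell markers (Pou5f1, Sox2, Nanog, Esrrb, Zfp42, Tfcp2l1) had peaks and 5 had one at a listed start site. Their sums totalled 7547 to 7929 scaled reads in the controls and 8553 to 9794 in the paused libraries, with 5 of 6 called higher and 3 of 6 after loess correction, where 29.8% and 4.85% of all genes were called higher. Of 6 melanocyte markers all had peaks, but none of the 3 with a listed start site had a peak within 1 kb of it, and of 5 macrophage and osteoclast markers Cd68 and Acp5 had no peak and none of the other 3 was called. Of 4 fibroblast markers 2 were called higher, and none after loess correction. Of 4 markers of endoderm, mesoderm and trophoblast none was called.

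Summed over its peaks, accessibility passed the test at 1 of the 9 genes, Mitf. Over all 18182 protein-coding genes tested this way, limma at an adjusted p under 0.05 called 29.8% higher and 1.40% lower in the paused libraries, and the median gene moved by 0.15 on the log2 scale. After TMM rescaling 7.56% of genes were called higher and 2.38% lower, and after loess correction 4.85% and 4.45%. Of the 9 genes 1 was called higher and 0 lower under the deposited scaling and after TMM rescaling, and none after loess correction, and 3 of the 9 lay above the all-gene median. In bulk samples, fewer cells with an open site and less opening per cell cannot be told apart.

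**Figure D1:**
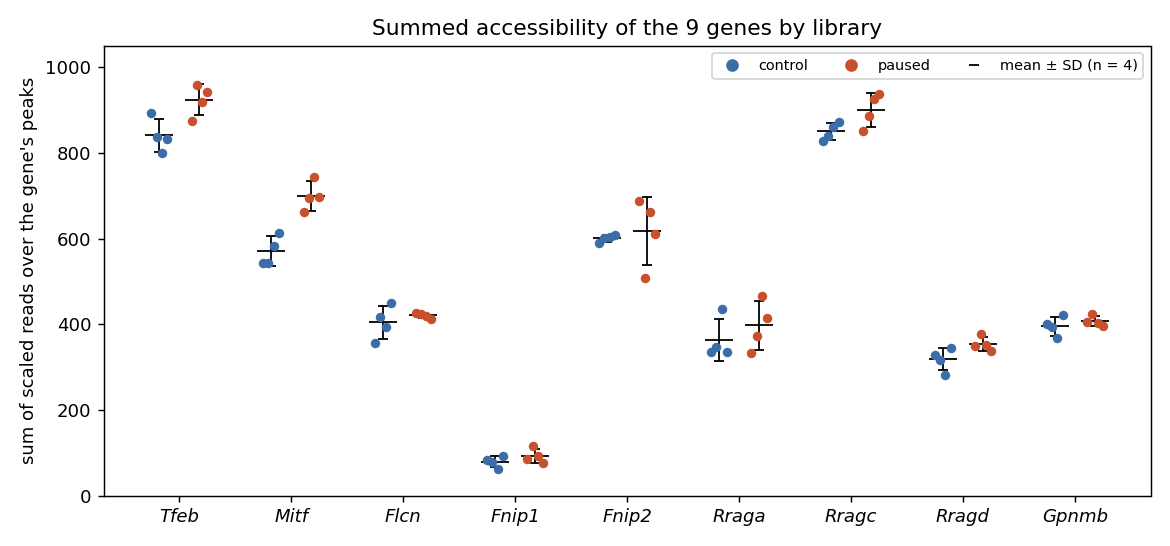
Summed accessibility of the 9 genes in scaled reads, 1 point per library, with the mean and SD of the 4 control and the 4 paused libraries. The groups do not overlap at Mitf and overlap at the other 8 genes.

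Mitf, the melanocyte master factor and a relative of TFEB, spans chr6:97807002-98021360 on the plus strand (gene 17342). Its 10 peaks summed to 543.1, 542.22, 582.5 and 614.26 scaled reads in control replicates 1 to 4 and to 662.15, 694, 744.75 and 698.27 in paused replicates 1 to 4. The lowest paused library stood above the highest control, a separation that 27.3% of all genes showed in one direction or the other. The means were 571 ± 34.7 and 699.8 ± 34 (SD, n = 4 each), a ratio of 1.23 and a log2 change of 0.29 (SE 0.07, limma adjusted p = 0.00185). The call held with each library left out in turn. Relative to the median gene the log2 change was 0.15. Without that reference it was 0.19 after TMM rescaling (adjusted p = 0.0459), and it was not called after scaling to the total reads in peaks (0.14, adjusted p = 0.148) or after a loess correction on strength (0.13, adjusted p = 0.146).

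All 10 Mitf peaks had a positive log2 change, from 0.02 to 0.98 with a median of 0.34, and 9 of them lay above the median of all tested peaks, 0.10. Under the deposited scaling both signs occurred at each of the other 8 genes. The change of 0.98 came from a weak Mitf peak of 1 to 19 reads per library, which was not called (adjusted p = 0.112). After loess correction the Mitf peak with the lowest change was at -0.08. Peaks of 1 gene share their libraries and are not replicates. The strongest, which covers the first start site (centre 85 bp before it), averaged 263 ± 11.2 and 307 ± 38.6 scaled reads, with a log2 change of 0.21 (SE 0.11, adjusted p = 0.183). At the third start site, labelled promoter C here and used in melanocytes, the nearest peak was 29862 bp away. For the second start site it was 22102 bp away. The melanocyte markers Tyr, Tyrp1, Dct, Pmel, Mlana and Sox10 together summed to 1639 to 1796 scaled reads in the controls and 1861 to 1948 in the paused libraries. Of these markers 1 of 6, Dct, was called higher, 16.7% beside 29.8% of all genes. Dct was not called after loess correction (limma adjusted p = 0.425). The part of these markers in the Mitf result was not tested.

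The 3 genes whose pattern over the 8 libraries was nearest to that of Mitf, by the mean absolute difference of log2 deviations among 15188 genes with a mean sum of at least 100, were Sntg1 (0.0181), Tcta (0.0199) and Zfp180 (0.0207). The median distance of a gene from Mitf was 0.114.

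Tfeb, the factor that gives the family its name in lysosome control, spans chr17:47737037-47792416 on the plus strand (gene 21425). Its 13 peaks summed to 893.28, 838.43, 799.24 and 833.2 in control replicates 1 to 4 and to 875.56, 958.98, 918.54 and 943.13 in paused replicates 1 to 4. Paused replicate 1 lay below control replicate 1, so the groups overlapped. The log2 change was 0.14 (SE 0.06, adjusted p = 0.0708), close to that of the median gene. Its surroundings are dense in open sites, with 38 peaks in the window or 2.45 per 10 kb, above 98.7% of genes, where the median gene has 0.885. Mitf, with 0.318 per 10 kb over a much longer span, was at the other side, above 22.4% of genes.

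None of the 3 genes of the folliculin complex was called by its sum. Flcn, which encodes folliculin, averaged 405 ± 38.9 and 421 ± 5.90 scaled reads (log2 change 0.06, adjusted p = 0.567). Fnip1, a folliculin partner at chr11:54438107-54518241 on the plus strand (gene 216742), averaged 79.4 ± 12.5 and 93.0 ± 16.1 (0.22, adjusted p = 0.240) from 2 peaks, the lowest sum of the 9 genes. Fnip2, the second partner, at chr3:79455971-79568151 on the minus strand (gene 329679), averaged 601 ± 7.68 and 617 ± 79.6 (0.03, adjusted p = 0.789), with control libraries close together at 590.11 to 608.36 and paused libraries spread from 507.87 to 687.53.

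Among the Rag genes, none of the 3 sums was called. Rraga, a short gene for RagA at chr4:86575673-86577285 on the plus strand (gene 68441), averaged 363 ± 48.5 and 398 ± 57.3 scaled reads (log2 change 0.13, adjusted p = 0.306). Rragc, for RagC, at chr4:123917433-123936997 on the plus strand (gene 54170), averaged 851 ± 20.1 and 900 ± 39.3 (0.08, adjusted p = 0.276). Rragd averaged 319 ± 26.6 and 354 ± 17.1 (0.15, adjusted p = 0.150).

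Gpnmb, a lysosomal membrane glycoprotein best known in melanocytes and macrophages, lies at chr6:49036518-49058182 on the plus strand (gene 93695). It averaged 396 ± 22.3 and 407 ± 12 (log2 change 0.04, adjusted p = 0.681). The signs of the Flcn, Fnip2, Rragc and Gpnmb sums were negative after TMM rescaling, total-read scaling and loess correction, those of Tfeb and Rraga after the last 2 of these, and that of Rragd after total-read scaling.

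**Figure D2:**
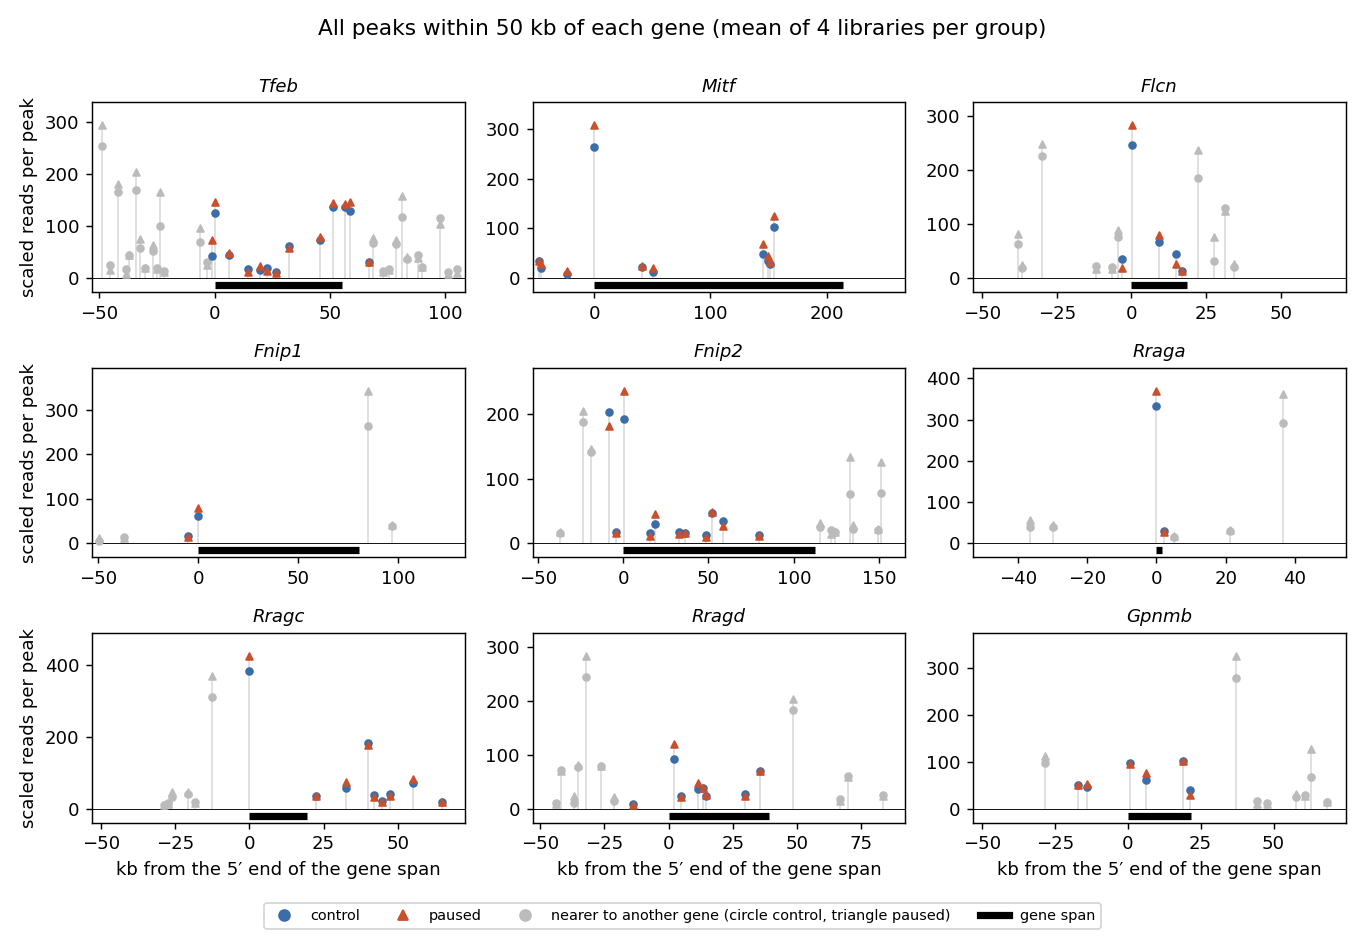
Mean scaled reads of every peak in the 9 windows, by distance in kb from the 5′ end of the gene span, with circles for controls and triangles for paused libraries. Grey marks peaks nearer to another gene and the black bar is the gene; the start-site peak is the tallest of the gene's own peaks in 6 of the 9 genes, and the Tfeb window is the most crowded, with 38 peaks.

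The single peaks were tested next. Of the 66 peaks of the 9 genes, 65 had a mean of at least 10 scaled reads and were tested, and 1 upstream of Rragd did not. In the paused libraries 3 were called higher, 4.62% of the 65, and 2 were called lower, 3.08%. Over all 127402 tested peaks 11.0% were called higher and 2.91% lower, or 13.9% either way against 7.69% here. In 4 of the 65, 6.15%, the groups did not overlap, against 17.4% of all tested peaks. The share called higher was below the background and the share called lower near it. After loess correction 1 was called higher and 3 lower, where 5.10% and 3.50% of all peaks were. edgeR with TMM gave 2 and 2, beside 7.13% and 5.54% of all peaks, and DESeq2 0 and 1, beside 3.06% and 1.49%. The median log2 change was 0.03, with 0.10 over all tested peaks. The 5 calls lay at Tfeb, Mitf, Flcn and Rragd, and 5 genes had none. In the authors' deposited table, 3 of the 66 peaks had an FDR under 0.05, beside 14771 of all 134407 peaks. These 3 were the called peaks of Tfeb and Mitf and the called Flcn peak inside the gene.

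**Figure D3:**
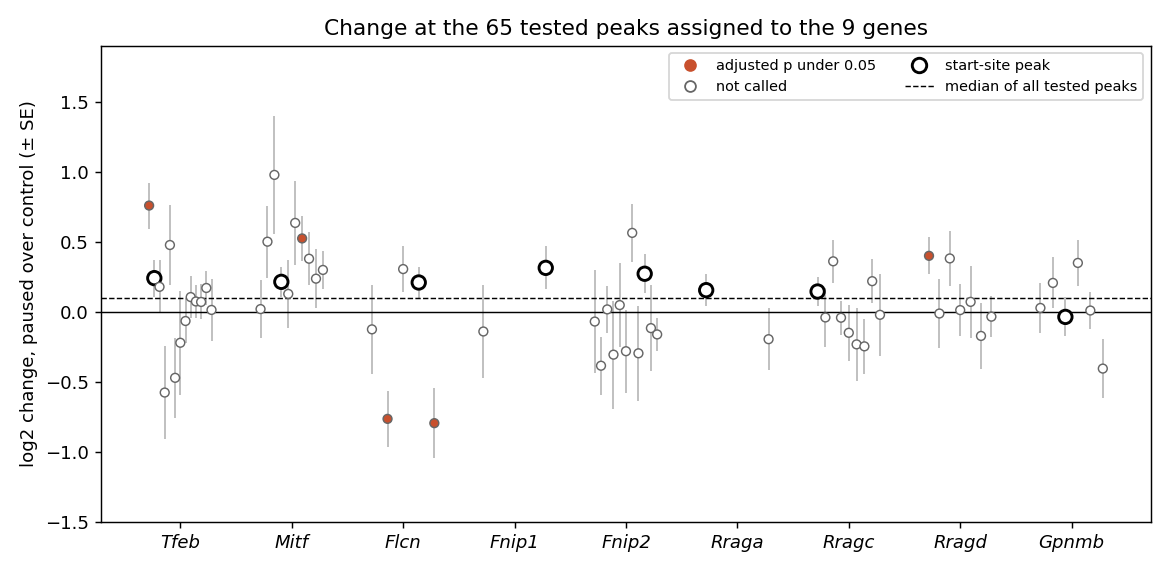
Log2 change (paused against control) with its SE for the 65 tested peaks, by gene. Filled points are the 5 called peaks, rings mark the 8 start-site peaks, and the dashed line is the median of all tested peaks at 0.10; the called peaks lie at Tfeb, Mitf, Flcn and Rragd and none of them carries a ring.

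No start-site peak was called. A peak lay within 1 kb of a listed start site in 8 of the 9 genes, all but Rragd, and 0 of these 8 peaks were called by limma, edgeR with TMM or DESeq2. Of 13903 tested peaks near any start site, limma called 11.3% higher and 1.06% lower. Adjusted p-values in limma ran from 0.170 at Fnip1 to 0.892 at Gpnmb, and in each of the 8 the control and paused values overlapped. Their log2 changes ran from -0.04 to 0.31 with a median of 0.21, beside 0.18 for all start-site peaks, and after loess correction from -0.23 to 0.14.

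These 8 peaks, each picked as the strongest within 1 kb of a start site, stood above 74.9% to 99.6% of all tested peaks. Their rank among start-site peaks alone was not taken. The Rragc peak, which holds the E-box shown above, was the strongest of the 66, with 385 ± 36.3 scaled reads in controls and 426 ± 42.3 in paused libraries (log2 change 0.14, adjusted p = 0.367). The Rraga peak averaged 332 ± 44.3 and 370.3 ± 54.6 (0.15, adjusted p = 0.377). At Fnip1, whose promoter holds both an E-box and the palindrome, the values were 62.4 ± 6.55 and 78.5 ± 15.3 (0.31, adjusted p = 0.170), the weakest start-site peak of the 8 and the one with the highest change.

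The Fnip2 start-site peak, over the same palindrome, averaged 192 ± 35.6 and 236 ± 61.7 (log2 change 0.27, adjusted p = 0.189), and was called without paused replicate 2 (0.42, adjusted p = 0.0431). That of Tfeb averaged 125 ± 27.9 and 145 ± 11.7 (0.24, adjusted p = 0.229), and was called without control replicate 2 (0.39, adjusted p = 0.0461). That of Flcn averaged 245 ± 34.3 and 282 ± 11.6 (0.21, adjusted p = 0.208). Gpnmb had no peak at the start itself, but one centred 703 bp after it, with 98 ± 14.1 and 95.2 ± 11.2 (-0.04, adjusted p = 0.892). Its strongest peak lay 19057 bp after the start, with 101 ± 11.3 and 102 ± 8.48 (0.01, adjusted p = 0.974).

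The called Tfeb peak, chr17:47735764-47735964, was centred 1173 bp upstream of the first start site. It held 53.58, 41.8, 35.56 and 39.68 scaled reads in control replicates 1 to 4 and 71.52, 82.02, 71.37 and 64.44 in paused replicates 1 to 4, from 21 to 155 reads per library. Every paused library was above every control. The means were 42.7 ± 7.73 and 72.3 ± 7.25, with a log2 change of 0.76 (SE 0.16, adjusted p = 0.00153), and the log2 fold in the authors' deposited table was 0.49 with an FDR of 0.00743. The call held with each of the 8 libraries left out and after loess correction (0.61, adjusted p = 0.0156), and was lost only in DESeq2 (0.58, adjusted p = 0.0818). The start-site peak beside it and the other 11 Tfeb peaks were not called, among them the strongest, 2755 bp after the third start site, at 137 ± 6.64 and 144 ± 11.3 (0.07, adjusted p = 0.727).

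Inside Mitf, chr6:97951819-97952019 lay 22102 bp after the second start site. Its controls held 44.94, 47.77, 50.8 and 47.02 scaled reads and its paused libraries 64.6, 74.13, 58.96 and 79.67, from 30 to 130 reads per library. The groups did not overlap, and paused replicate 3 was the nearest to the controls. The means were 47.6 ± 2.43 and 69.3 ± 9.31 (log2 change 0.52, SE 0.16, adjusted p = 0.0215). The call was lost after each change of scaling in limma (loess 0.37, adjusted p = 0.145), in DESeq2 (adjusted p = 0.190), and without control replicate 1 (0.0655), paused replicate 2 (0.0607) or paused replicate 4 (0.0909).

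Flcn, the gene of the GTPase-activating protein for RagC and RagD, spans chr11:59791408-59810039 on the minus strand (gene 216805), and both peaks called lower were its own. The first, chr11:59795146-59795346, lay inside the gene 14793 bp after the start site. Its controls held 43.56, 47.77, 47.41 and 42.62 scaled reads and its paused libraries 32.3, 20.5, 21.72 and 32.8, from 13 to 126 reads per library. Every paused library was below every control. The means were 45.3 ± 2.63 and 26.8 ± 6.63, with a log2 change of -0.77 (SE 0.20, adjusted p = 0.00854). It was called in every alternative in which it was tested, loess correction included (-0.87, adjusted p = 0.00513), and had too low a mean to be tested at a minimum of 50.

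The second Flcn peak, chr11:59813141-59813341, lay 3202 bp upstream of the start site. Its controls held 23.51, 43, 45.72 and 26.45 scaled reads and its paused libraries 21.92, 23.66, 20.17 and 11.72, from 10 to 68 reads per library. Paused replicate 2 exceeded control replicate 1, so these groups overlapped. The means were 34.7 ± 11.3 and 19.4 ± 5.29, with a log2 change of -0.80 (SE 0.25, adjusted p = 0.0293). The call was lost without control replicate 2 (0.107), control replicate 3 (0.123) or paused replicate 4 (0.137) and in DESeq2 (0.0790). In the authors' deposited table this peak had an FDR of 0.0635. The start-site peak between the 2 held 245 scaled reads in controls, and the remaining Flcn peaks, at 9397 and 17083 bp after the start, had log2 changes of 0.31 and -0.13 and were not called.

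Rragd, the gene of RagD, spans chr4:32982998-33022180 on the plus strand (gene 52187) and had no peak within 2 kb of its start site. Its strongest peak, chr4:32985170-32985370, lay inside the gene 2272 bp after the start. The controls held 96.79, 88.38, 74.5 and 107.27 scaled reads and the paused libraries 118.82, 118.3, 127.23 and 117.16, from 44 to 280 reads per library. The groups did not overlap, with control replicate 4 the nearest to the paused libraries. The means were 91.7 ± 13.8 and 120.4 ± 4.62 (log2 change 0.40, SE 0.13, adjusted p = 0.0381). In the authors' deposited table this peak had an FDR of 0.0638. The call held without control replicate 4 and was lost without any 1 of the other 7 libraries (adjusted p up to 0.151), after each change of scaling in limma (loess 0.21, adjusted p = 0.352), in edgeR with TMM (0.173) and in DESeq2 (0.368).

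**Figure D4:**
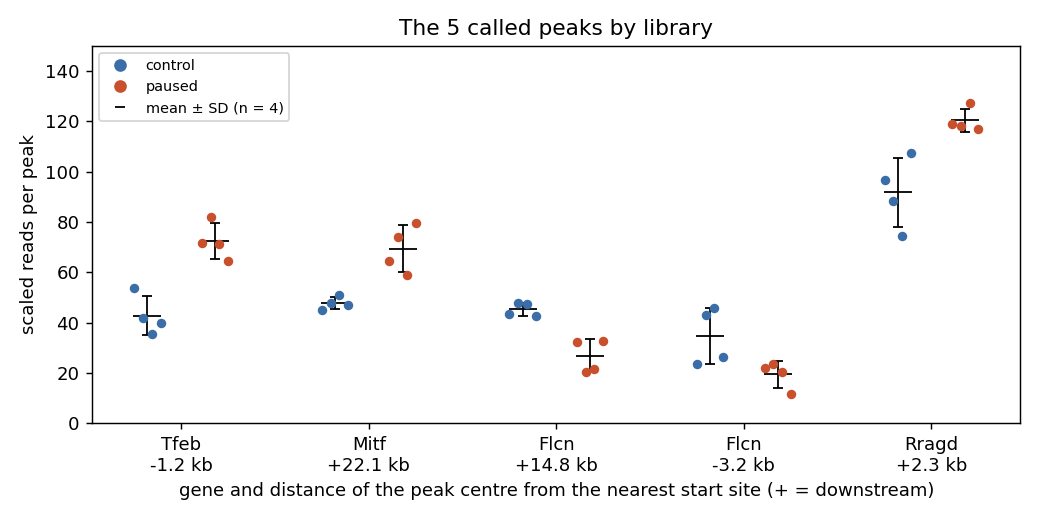
Scaled reads of the 5 called peaks in each of the 8 libraries. The groups are separate at the Tfeb, Mitf and Rragd peaks and at the Flcn peak inside the gene, and overlap at the Flcn peak 3202 bp upstream.

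Fnip1, Fnip2, Rraga, Rragc and Gpnmb had no called peak among the 30 peaks nearest to them. The nearest to a call was a Fnip2 peak inside the gene, 18456 bp after its start (30.1 ± 7.07 and 45.0 ± 11.1 scaled reads, log2 change 0.56, adjusted p = 0.0602). The Fnip2 peak with the highest control mean, 8662 bp upstream, averaged 203 ± 28.8 and 181 ± 18.9 (-0.16, adjusted p = 0.390) and was called lower only after loess correction (-0.37, adjusted p = 0.028). Of the 9 Rragc peaks, all but that at the start site lay beyond the gene's 3′ end, up to 64890 bp from the start, with log2 changes from -0.25 to 0.36. The Rraga peak just after its gene, 2097 bp from the start, had a log2 change of -0.20 (adjusted p = 0.593).

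**Figure D5:**
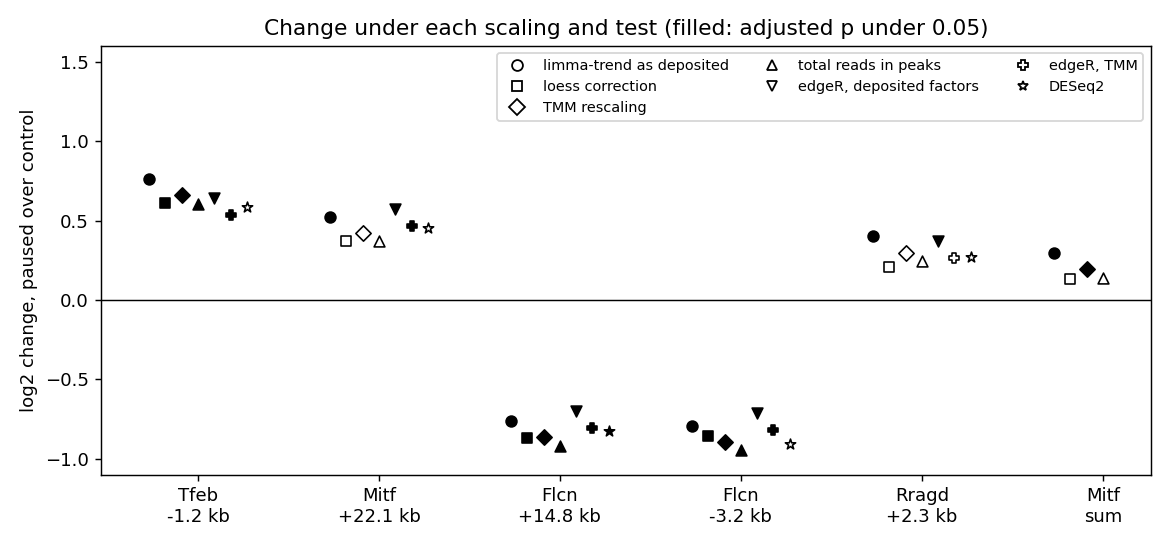
Log2 change of the 5 called peaks and of the Mitf sum under the deposited scaling and 6 other scalings or tests (for the sum, the scalings in limma only), filled where the adjusted p was under 0.05. The Flcn peak inside the gene is filled in each, and the Mitf and Rragd peaks lose the call under several.

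Of the 79 peaks in the same windows that belonged to another gene, 76 were tested and 11 were called, 10 higher and 1 lower, or 14.5% beside 13.9% of all peaks. In the Flcn window the peak nearest to Mprip, a myosin phosphatase partner, held 31.4 ± 1.72 scaled reads in controls and 75.1 ± 14.6 in paused libraries (log2 change 1.21, adjusted p = 8.67e-06). It lay beyond the 3′ end of Flcn, and a peak of Pld6 between them was called at 0.36 (adjusted p = 0.0276). The Pld6 call was lost after each change of scaling in limma (loess adjusted p = 0.370), in edgeR with TMM (0.108), in DESeq2 (0.238), and without control replicate 1 or 4 or paused replicate 2, 3 or 4 (0.0533 to 0.0937). Beside Tfeb, a peak of Frs3, an adaptor of FGF receptors, was called at 0.73 (adjusted p = 0.000139) and another at -1.19 (adjusted p = 0.0264), the latter from 3 to 50 reads per library. The lower call was lost after loess correction (adjusted p = 0.0945), in DESeq2 (0.106), and without any 1 library other than control replicate 2 and paused replicate 4 (0.0508 to 0.0993). Beyond the 3′ end of Fnip2, peaks nearest to Gm17359 were called at 0.84 (adjusted p = 0.000109) and 0.68 (adjusted p = 0.000539).

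Next to Gpnmb, a peak inside both Igf2bp3 and Malsu1 was called at 0.89 (adjusted p = 3.62e-05), and in the Rragd window a weak peak of Ankrd6 at 1.14 (adjusted p = 0.00889). Peaks of Rapgef6 beside Fnip1 and of Haus6 beside Rraga were called at 0.38 (adjusted p = 0.0139) and 0.32 (adjusted p = 0.0374). Both calls were lost after each change of scaling in limma (loess adjusted p = 0.272 and 0.483), in edgeR with TMM (0.0824 and 0.157) and in DESeq2 (0.158 and 0.260). Rapgef6 was also lost without control replicate 3 (0.0634) or paused replicate 2 (0.0560), and Haus6 without control replicate 1, 2 or 4 or paused replicate 3 or 4 (0.0584 to 0.107). The Ankrd6 call was lost in DESeq2 (0.0506). The eleventh belonged to Mdfi, beyond Tfeb. Which gene such peaks act on was not tested.

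The other genes of the pathway were read from a list of 41. Tfec, a member of the same factor family, had no peak, and of the 40 others 10 sums were called higher and 0 lower, 25% and 0% beside 29.8% and 1.40% of all genes. Their median log2 change was 0.16, beside 0.15 over all genes. After loess correction 1 of the 40 was called higher and 1 lower, where 4.85% and 4.45% of all genes were. Tfe3, the remaining family member, averaged 189 ± 17.4 and 197 ± 16.2 (0.06, adjusted p = 0.673). Among their 182 tested peaks 19 were called higher and 7 lower, 10.4% and 3.85% beside 11.0% and 2.91% of all peaks.

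A further 7 genes were listed for the Rag and Ragulator complexes, Slc38a9 among them, although it is a sensor rather than a subunit. Of these 3 were called higher, 42.9% beside 29.8% of all genes, and 1 after loess correction. This list leaves out Rraga, Rragc and Rragd, none of which was called by its sum, so the share is not that of the whole complexes. Rragb, the X-linked counterpart of Rraga, averaged 322 ± 37.9 and 437 ± 59.1 scaled reads (log2 change 0.44, SE 0.09, adjusted p = 0.00126), and it was the 1 called higher after loess correction (0.27, adjusted p = 0.0371). Lamtor1, the Ragulator subunit that anchors the complex in the lysosomal membrane, was called at 0.30 (adjusted p = 0.00344), and Slc38a9, the lysosomal arginine sensor, at 0.17 (adjusted p = 0.0496). Of 15 genes of amino acid sensing upstream of the Rags 3 were called higher, 20% and so below that share, and none after loess correction. They were Wdr59 (0.19, adjusted p = 0.0368), Kptn (0.28, adjusted p = 0.0430) and Sesn3 (0.27, adjusted p = 0.0231). Itfg2 was the gene called lower after loess correction (-0.27, adjusted p = 0.0225).

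Of 17 lysosome and autophagy genes known as TFEB targets 4 were called higher, 23.5% beside 29.8% of all genes. Ctsd, which encodes the protease cathepsin D, had a log2 change of 0.21 (adjusted p = 0.0404) and Atp6v1h, a subunit of the proton pump, of 0.33 (adjusted p = 0.00414). The sugar-cleaving enzyme genes Hexa and Neu1 had log2 changes of 0.22 (adjusted p = 0.0247) and 0.21 (adjusted p = 0.0465). None of these 4 was called after loess correction.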

How the data were processed

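ATAC-seq libraries of E14 cells, 4 control and 4 paused, were sequenced in pairs of 150 bp, per the labels. The submitters' processing notes name FastQC, Trim Galore, Bowtie2 2.4.1, MACS3 3.0.3, DiffBind 3.16.0 and the build mm10. Read filters and the handling of the Tn5 offset are not given in the sources used here. The per-sample signal deposited by the authors is reads per peak divided by 1 factor per library: 100% of values were whole multiples of 1 step, within 0.011. The log2 folds and group means, p-values and FDR deposited by the authors were used only where their table is named. All 8 per-sample columns were used and 0 were left out.

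The test was limma-trend (limma 3.58.1, R 4.3.3) on log2(value + 1) over 127402 peaks with a mean of at least 10, with Benjamini-Hochberg adjustment and a threshold of 0.05. Changes are given on that scale, which understates them at weak peaks. Gene sums over peaks inside a span, or nearest to it within 50 kb, were tested likewise over 18182 genes. A start-site peak is the strongest within 1 kb of a RefSeq start site. Alternatives were TMM, total-read and loess scaling (span 0.3), a pseudocount of 0.1, no filter, a minimum mean of 50, peaks within 10 kb only, a replicate block, each library left out, and edgeR 4.0.16 and DESeq2 1.42.0 on the recovered reads. With the deposited factors edgeR called 16424 peaks higher and 4621 lower. The limma fits, but not edgeR or DESeq2, were tested on simulated data with the same variability at every peak. Of 100 peaks changed by 1 on the log2 scale 76 were called, and of 100 changed by 1.5, 99 were. Smaller changes at peaks were not simulated. Of 200 gene sums changed by 0.5, 167 were called.

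Named peaks were, per gene, the start-site peak, the strongest peak and up to 6 called ones, and up to 2 called peaks of neighbouring genes. The genes, gene lists and tests were chosen with earlier results of these data known. No 2 libraries of a group agreed within sampling noise (chi-square per degree of freedom 1.09 to 1.67 over peaks). Names, spans and promoters are from RefSeq tables of GRCm38.p6, in which all 9 genes matched. Exons and introns were not analysed here. Values for 3 reads run from 1.04 to 5.08. Counting error takes no account of PCR copies, which were not assessed here.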

Additional observations from a re-analysis of the deposited data

Results flagged for a closer look

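In 5 of 68 groups of 4 libraries examined, 1 library stood apart from the other 3 by more than the usual limit for a single outlying value, and chance does so in about 1 group in 20. At the Rraga start-site peak, control replicate 3 held 397.92 scaled reads and the other controls 304.21 to 315.31. The same library carried the Rraga sum, at 435.17 beside 334.98 to 346.36. At the called Rragd peak, paused replicate 3 held 127.23 and the others 117.16 to 118.82. At the Frs3 peak called lower in the Tfeb window, paused replicate 4 held 16.4 and the others 4.61 to 6.31. At the Gm17359 peak called at 0.68 beside Fnip2, control replicate 4 held 67.6 and the others 80.89 to 83.6.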

How the results depend on the processing

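The 3 peaks called higher became 1 after TMM rescaling, 1 after total-read scaling, 1 after loess correction and 0 in DESeq2, which called 3902 of all peaks higher. They ranged from 1 to 4 with single libraries left out, and were 1 without control replicate 1 or paused replicate 4. The 2 peaks called lower became 0 at a minimum mean of 50, where neither was tested, 1 in DESeq2, and 1 to 2 with single libraries left out. Total-read scaling and loess correction left 0 genes called by sum. Leaving out single libraries gave 1 to 2 called genes, Tfeb joining without paused replicate 1 (adjusted p = 0.0417). Same-numbered libraries had correlations of 0.0358 to 0.133, with 3 of 4 controls nearest to their own number. Whether they were paired cannot be told from these values, and the main test treats them as unpaired. The replicate block gave 4 peaks higher, 2 lower and 2 genes, adding Tfeb (adjusted p = 0.0378). Over all peaks it called 17371 higher and 4623 lower, beside 13958 and 3702 without it.

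Small changes turned sign with the scaling. The median of all peaks was 0.10 as deposited, 0.00136 after TMM, -0.05 after total-read scaling and -0.01 after loess correction. Calls were 7631 higher and 5291 lower after TMM, 5743 and 6828 after total-read scaling, 6497 and 4459 after loess correction, and 1892 lower in DESeq2. By TMM, total reads and loess in turn, sums were -0.041, -0.096 and -0.11 for Flcn, -0.073, -0.13 and -0.11 for Fnip2, -0.022, -0.076 and -0.10 for Rragc, and -0.059, -0.11 and -0.13 for Gpnmb. By total reads and loess they were -0.021 and -0.032 for Tfeb and -0.028 and -0.070 for Rraga, and by total reads -0.00175 for Rragd. The start-site peaks gave -0.00218 and -0.054 for Rraga and -0.012 and -0.064 for Rragc. The strongest Tfeb peak gave -0.028, -0.082 and -0.13, then -0.037 in edgeR with TMM and -0.036 in DESeq2. The strongest Gpnmb peak gave -0.092, -0.15 and -0.18, then -0.13 in edgeR with TMM, -0.021 with deposited factors and -0.12 in DESeq2. With single libraries left out it ran from -0.048 to 0.073, the Gpnmb start-site peak from -0.14 to 0.032 and the Fnip2 sum from -0.026 to 0.12. The cause of these reversals was not tested. Control replicate 3, the shallowest library, limits weak peaks most.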
